A study of Mus musculus with 10 samples.

Results

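The Sp100 family cluster of mouse chromosome 1 was examined as 6 neighbouring genes, C130026I21Rik, Gm2619, Gm7609, Sp100, Sp110 and Sp140, out of 47937 genes counted in each library. The genes were listed by symbol, and they were selected on values of these same libraries, since some of them were near absent in wild-type mice on the standard diet (SD). Comparisons of SD Mof+/+ libraries with the others are therefore given for these 6 genes as a description without a test. Expression was measured by mRNA-seq of visceral white adipose tissue (WAT), the fat depot around the abdominal organs, in 10 libraries. The groups were SD Mof+/+ (n = 3), SD Mof+/- (n = 3), high-fat diet (HFD) Mof+/+ (n = 2) and HFD Mof+/- (n = 2). The strain label of all animals was C57BL/6, and the SD animals were 8 weeks old, whereas the HFD animals were 27 weeks old after 20 weeks of HFD, so that diet and age cannot be told apart. These ages and times are those of the series description, while the text of the study gives a longer HFD period and male mice, and the sources were not reconciled. The Mof+/- mice are heterozygous for Mof (gene symbol Kat8), an acetyltransferase of histone H4, in every tissue. The study used them to ask how a reduced dose of this enzyme alters WAT under each diet. The low levels were not a property of SD Mof+/+ mice alone, because Gm2619 had no count in either HFD Mof+/- library. C130026I21Rik and Gm7609 had none in 1 of the 2. That library was shallow, and the level of Gm7609 in the other would have given only 0.755 counts there.

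Sp100, Sp110 and Sp140 encode related nuclear proteins that share a SAND domain, a fold that binds DNA, and an amino-terminal domain through which they assemble. SP100 is a permanent component of PML nuclear bodies, spherical structures held together by PML and by the small modifier SUMO, and it takes part in the defence against DNA viruses. SP110 and SP140 are found mainly in leukocytes, where SP140 carries a bromodomain and a PHD finger that read chromatin, and the 3 genes are among those that respond to interferon. The stretch of mouse chromosome 1 beside Sp100 is known for repeated copies of Sp100-related sequence, and the number of copies differs between mice.

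The 6 genes lie within about a megabase on chromosome 1 (GRCm38, GENCODE M21). C130026I21Rik spans chr1:84992690-85270566 on the minus strand and is annotated as protein coding, with 3827 exonic bases. Gm2619 (chr1:85156809-85327306, minus strand, 764 exonic bases) and Gm7609 (chr1:85199613-85213786, plus strand, 2496 exonic bases) are annotated as transcribed unprocessed pseudogenes, and Gm7609 lies inside the spans of both. Sp110 (chr1:85576899-85598817, minus strand), Sp140 (chr1:85600378-85645037, plus strand) and Sp100 (chr1:85649988-85709998, plus strand) are protein coding and follow each other in that order.

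The sequence before the start of each gene shows how close the copies are to the named family members. RefSeq (GRCm38.p6) holds a promoter of 300 bases for 5 of the 6 genes, and Gm2619 has none there. The longest stretch without gaps that C130026I21Rik shares with Sp140 was cut at the start site. The 205 bases kept before the start of C130026I21Rik differ at 1 base, shown in capitals. For Gm7609 and Sp100 the part kept in this way, up to the start of Sp100, is 222 bases long and also differs at 1 base. The C130026I21Rik stretch lies at chr1:85270567-85270771 (minus strand), that of Sp140 at chr1:85600460-85600664 (plus strand), that of Gm7609 at chr1:85199361-85199582 (plus strand) and that of Sp100 at chr1:85649766-85649987 (plus strand).
C130026I21Rik: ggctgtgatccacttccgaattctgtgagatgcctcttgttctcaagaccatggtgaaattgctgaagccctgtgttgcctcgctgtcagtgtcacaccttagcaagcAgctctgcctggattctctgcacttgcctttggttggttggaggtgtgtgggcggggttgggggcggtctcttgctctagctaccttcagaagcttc
Sp140: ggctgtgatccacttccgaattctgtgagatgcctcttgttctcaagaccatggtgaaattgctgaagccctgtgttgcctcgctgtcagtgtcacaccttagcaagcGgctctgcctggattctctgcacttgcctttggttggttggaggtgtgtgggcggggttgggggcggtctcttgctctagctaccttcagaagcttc
Gm7609: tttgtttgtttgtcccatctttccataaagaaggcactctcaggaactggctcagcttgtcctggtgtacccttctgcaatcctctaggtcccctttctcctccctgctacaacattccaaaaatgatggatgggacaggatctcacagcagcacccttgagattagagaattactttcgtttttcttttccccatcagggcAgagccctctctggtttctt
Sp100: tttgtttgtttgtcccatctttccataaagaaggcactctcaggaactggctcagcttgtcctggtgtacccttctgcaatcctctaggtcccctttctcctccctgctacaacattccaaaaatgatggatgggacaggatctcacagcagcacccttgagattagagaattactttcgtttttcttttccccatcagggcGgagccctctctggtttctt
Over all aligned bases, which run past the start site, C130026I21Rik and Sp140 differed at 4 of 261 positions. Gm7609 differed from Sp100 at 4 of 272 positions with the Sp100 start used above, and at 5 of 298 positions with its other annotated start. The promoter of A530032D15Rik, a further protein-coding copy of the cluster that is not one of the 6 genes, was identical to that of C130026I21Rik over 279 aligned bases.

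Interferon-responsive promoters often hold a pair of GAAA elements a few bases apart, the contact sites of interferon regulatory factors, and both spacings were searched on both strands. The motif GAAANNGAAA was in none of the promoters of the 5 genes, while 3.44% of all 32851 RefSeq promoters of this length held it. The wider spacing GAAANNNGAAA, searched after the promoters had been seen, was in those of Gm7609 and Sp100 and in 1 of the 2 promoter entries of Sp110, and in 2.75% of all promoters. It was on the strand opposite to the gene in each case, and it is shown in capitals with 10 bases on either side.
Gm7609: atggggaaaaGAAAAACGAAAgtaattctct
Sp100: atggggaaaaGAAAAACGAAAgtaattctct
Sp110: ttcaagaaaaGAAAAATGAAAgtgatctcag
The motif and its flanks read the same in Gm7609 and Sp100, 75 bases before the start of Gm7609 and 47 or 73 bases before the 2 annotated starts of Sp100. The windows run past the start site, and the Sp110 match lay past the start, at -9 bases on this scale. Its absence from the promoters of C130026I21Rik and Sp140 says only that these letters are not in the window.

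Several properties of the libraries touch these genes. The total count on genes was 7301119 to 7829250 in SD Mof+/+, 6724618 to 17171947 in SD Mof+/-, 15483115 and 16014992 in HFD Mof+/+, and only 1044355 and 5531786 in HFD Mof+/-. In replicate 1 of HFD Mof+/-, 26.9% of the counts were mitochondrial and 7.90% were on 16 skeletal muscle genes, against 0.193% on muscle genes in replicate 2 of that group and 0.00513% to 0.0136% in the other groups. The female-specific transcript Xist had 390 to 2388 counts in the 3 SD Mof+/- libraries, which had none on 4 Y-linked genes, while the other 7 libraries had counts on Y-linked genes and none on Xist. On SD, sex and genotype therefore cannot be told apart. For replicate 3 on SD, the heading of the count column names the opposite genotype in both groups, and the grouping follows the sample labels. Mof itself was at 21.5, 21.4 and 20.4 CPM (each count scaled to the total of its library) in SD Mof+/+, 12.2, 18.8 and 11.5 in SD Mof+/-, 18.1 and 19.2 in HFD Mof+/+, and 20.1 and 10.5 in HFD Mof+/-, and no contrast of the genotypes passed (edgeR adjusted p = 0.736 on SD and 0.987 on HFD). The animals or pools behind the libraries are not named in the labels beyond being biological replicates, and p-values measure the spread between these libraries.

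C130026I21Rik had the highest counts of the 3 copies. It had 0 counts in each of the 3 SD Mof+/+ libraries, and 880, 434 and 611 counts in SD Mof+/-, or 51.2, 41.6 and 90.9 CPM. The HFD Mof+/+ libraries had 846 and 561 counts, or 54.6 and 35.0 CPM, and the HFD Mof+/- libraries had 0 and 81 counts, or 0 and 14.6 CPM. SD Mof+/- (61.2 ± 26.1 CPM, SD, n = 3) and HFD Mof+/+ (44.8 ± 13.9 CPM, n = 2) overlapped, HFD Mof+/- lay below both, and SD Mof+/+ was at 0. A floor of 3 counts, used as the limit for a count of 0, stood at 0.383 to 0.411 CPM in the SD Mof+/+ libraries. The exact 95% interval of a count of 0 reached somewhat higher there, to 0.471 to 0.505 CPM. Had the SD Mof+/+ libraries been at the level of the lowest library above the floor, 14.6 CPM, they would have had 107 to 115 counts. In the shallow replicate 1 of HFD Mof+/- the same level would have given 15.3 counts and the floor was 2.87 CPM.

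Gm2619, the pseudogene with the shortest exons, followed the same order on SD. Its counts were 0 in all SD Mof+/+ libraries, 674, 366 and 126 in SD Mof+/-, 436 and 192 in HFD Mof+/+, and 0 in both HFD Mof+/- libraries. In CPM these were 39.3, 35.1 and 18.7 in SD Mof+/- (31.0 ± 10.8, SD, n = 3) and 28.2 and 12.0 in HFD Mof+/+ (20.1 ± 11.4, n = 2). The 2 groups with counts overlapped, and the 2 groups without counts could not be ordered. At 12.0 CPM, the lowest level seen where it was detected, replicate 2 of HFD Mof+/- would have had 66.3 counts of Gm2619 and replicate 1 would have had 12.5.

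Gm7609, the pseudogene whose promoter resembles that of Sp100, had 0 counts in all SD Mof+/+ libraries and 172, 122 and 48 in SD Mof+/-. It had 263 and 111 counts in HFD Mof+/+ and 0 and 4 in HFD Mof+/-. The levels were 10.02, 11.7 and 7.14 CPM in SD Mof+/- (9.62 ± 2.31, SD, n = 3), 17.0 and 6.93 CPM in HFD Mof+/+ (12.0 ± 7.11, n = 2), and 0 and 0.723 CPM in HFD Mof+/-. SD Mof+/- lay within the range of HFD Mof+/+, and both lay above the remaining groups.

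**Figure D1:**
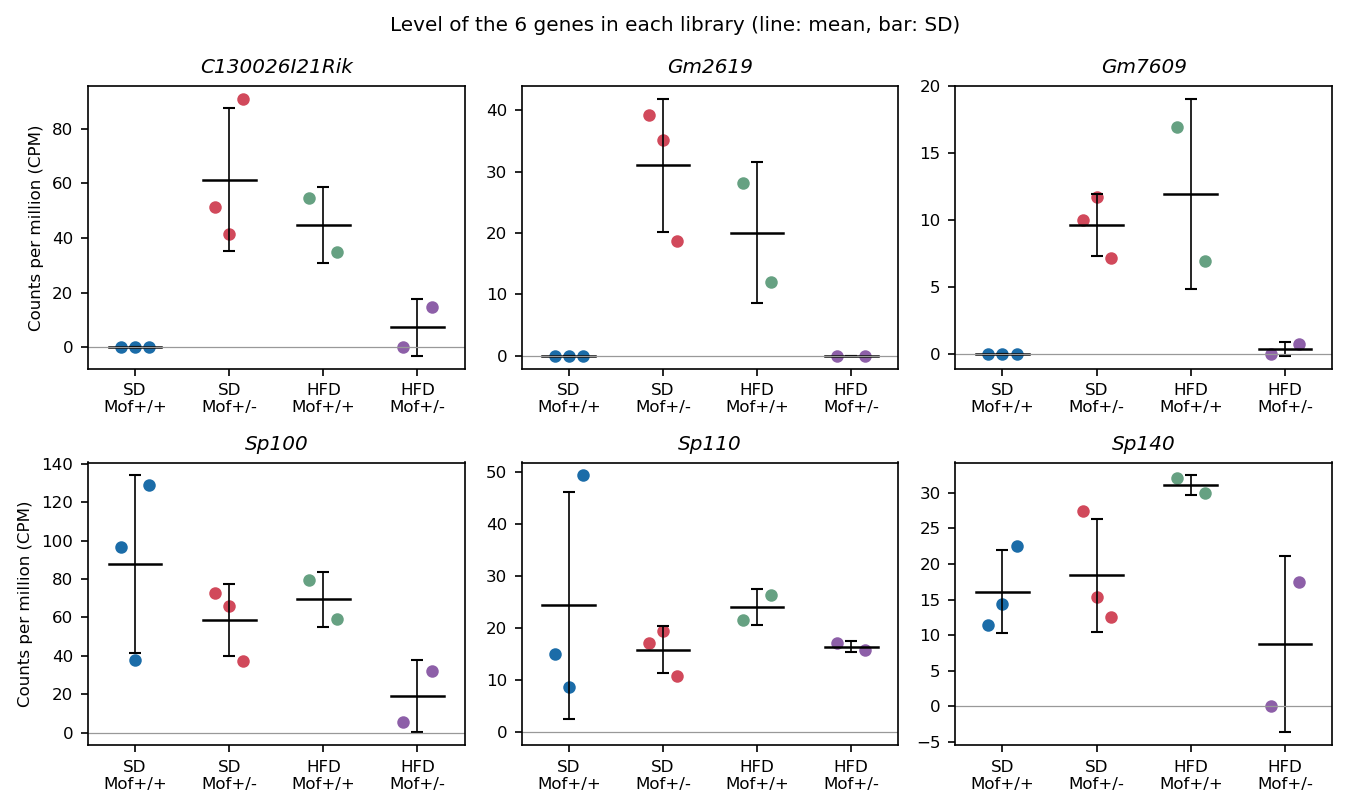
CPM of each of the 6 genes in each library, by diet and genotype, with 1 point per library, the group mean as a line and the SD as a bar. C130026I21Rik, Gm2619 and Gm7609 sit at 0 in all 3 SD Mof+/+ libraries, where Sp100, Sp110 and Sp140 are detected, and they are at 0 or at most 14.6 CPM in HFD Mof+/-.

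The 3 copies were all at 0 in the SD Mof+/+ libraries and in replicate 1 of HFD Mof+/-, and where they were detected they did not stand in a fixed ratio. Of their summed counts, C130026I21Rik took 51.0% (95% exact Clopper-Pearson interval 48.6 to 53.4) in replicate 1 of SD Mof+/-, 47.1% (43.8 to 50.4) in replicate 2 and 77.8% (74.8 to 80.7) in replicate 3. In HFD Mof+/+ it took 54.8% (52.2 to 57.3) and 64.9% (61.6 to 68.1), and in replicate 2 of HFD Mof+/- it took 81 of 85 counts, or 95.3% (88.4 to 98.7). The share of Gm2619 moved the other way, from 39.0% and 39.7% in replicates 1 and 2 of SD Mof+/- to 16.1% in replicate 3, 28.2% and 22.2% in HFD Mof+/+, and 0% with an upper bound of 4.25% in replicate 2 of HFD Mof+/-. Gm7609 took 6.11% to 17.0% in the libraries of SD Mof+/- and HFD Mof+/+. These intervals cover counting error only, and several of them do not overlap between replicates of 1 group.

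**Figure D2:**
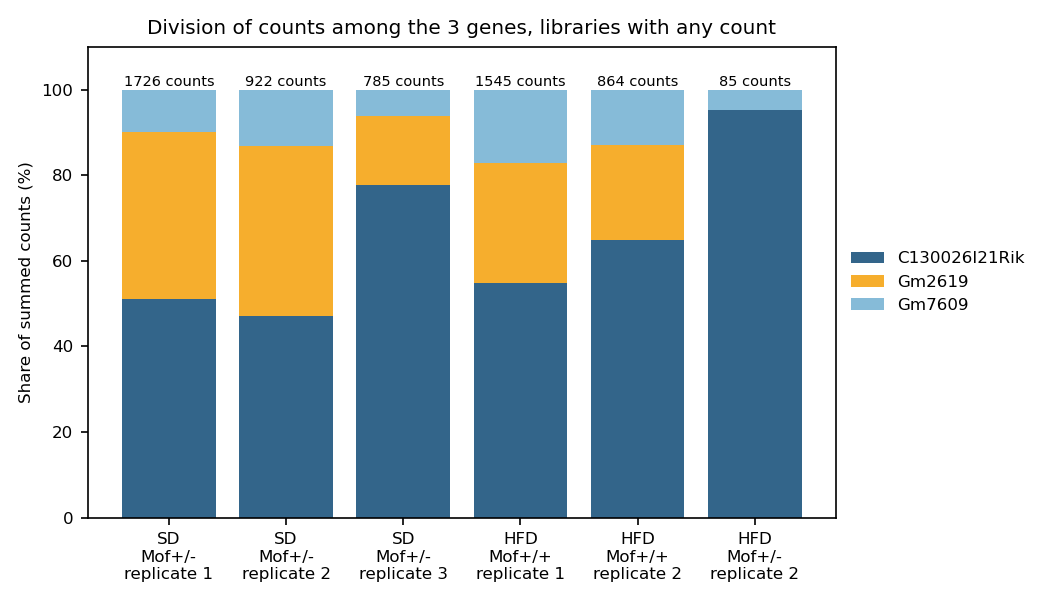
Share of the summed counts of C130026I21Rik, Gm2619 and Gm7609 taken by each gene (vertical axis, %) in the 6 libraries with any count, whose summed counts stand above the bars. C130026I21Rik takes from 47.1% to 77.8% in SD Mof+/- and 95.3% of 85 counts in the HFD Mof+/- library.

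Scaled to exon length, the order of the copies changed. Gm2619 had the highest level per length in SD Mof+/-, at 40.6 ± 14.2 CPM per kilobase of exon (SD, n = 3), above C130026I21Rik at 16.0 ± 6.82 and Gm7609 at 3.85 ± 0.925. In HFD Mof+/+ the levels per kilobase were 26.3 ± 14.97, 11.7 ± 3.62 and 4.79 ± 2.85 (n = 2). Sp100 was at 7.77 ± 2.48 CPM per kilobase in SD Mof+/- and at 11.6 ± 6.12 in SD Mof+/+, so that in SD Mof+/- the pseudogene Gm2619 exceeded it. Merged exons of all annotated isoforms were used as the length, and a library that uses only short isoforms would have a higher level.

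Sp100, the PML body component, was detected in every library. SD Mof+/+ had 96.6, 37.7 and 129 CPM (87.7 ± 46.3, SD, n = 3), SD Mof+/- had 73.0, 65.8 and 37.5 CPM (58.7 ± 18.8, n = 3), HFD Mof+/+ had 79.6 and 59.1 CPM (69.4 ± 14.5, n = 2), and HFD Mof+/- had 5.75 and 32.2 CPM (19.0 ± 18.7, n = 2). The first 3 groups overlapped, and both HFD Mof+/- libraries lay below every library of the other groups. In bulk tissue, fewer cells of a type and less RNA per cell cannot be told apart.

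Sp110 was at 15.1, 8.77 and 49.4 CPM in SD Mof+/+, 17.2, 19.6 and 10.9 CPM in SD Mof+/-, 21.6 and 26.5 CPM in HFD Mof+/+, and 17.2 and 15.7 CPM in HFD Mof+/-. Its group means were 24.4 ± 21.9, 15.9 ± 4.51, 24.0 ± 3.47 and 16.5 ± 1.07 CPM in that order. The libraries of SD Mof+/+ spanned those of every other group, those of both Mof+/- groups overlapped, and HFD Mof+/+ lay above both Mof+/- groups in CPM only. With TMM scaling HFD Mof+/+ was at 20.2 and 24.9 CPM, HFD Mof+/- at 20.6 and 16.2 CPM and SD Mof+/- at up to 21.4 CPM, and without mitochondrial and muscle genes the HFD groups were at 22.5 and 27.3 CPM and at 26.4 and 16.0 CPM. Sp140 was at 11.4, 14.4 and 22.6 CPM in SD Mof+/+ (16.1 ± 5.81), 27.4, 15.3 and 12.5 CPM in SD Mof+/- (18.4 ± 7.90), 32.0 and 30.0 CPM in HFD Mof+/+ (31.0 ± 1.41) and 0 and 17.5 CPM in HFD Mof+/- (8.77 ± 12.4). HFD Mof+/+ lay above all other libraries for Sp140 in CPM, while with TMM scaling its 30.1 and 28.2 CPM overlapped SD Mof+/-, which reached 29.9 CPM. At 11.4 CPM, the lowest level among the other libraries, replicate 1 of HFD Mof+/- would have had 11.9 counts.

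These 3 genes are expressed by immune cells, and the levels of immune markers are given beside them. Replicate 3 of SD Mof+/+ had the highest Sp100 and Sp110 of all libraries. The summed level of 6 B cell genes was 430 CPM there against 7.26 to 72.9 CPM in the other libraries, and that of 6 T cell genes was 363 CPM against 4.02 to 37.6 CPM. All 6 B cell genes and all 6 T cell genes were detected in SD Mof+/+. Without that library, Sp110 in SD Mof+/+ was at 15.1 and 8.77 CPM, below both HFD groups and overlapping SD Mof+/-. For Sp140, whose highest libraries were those of HFD Mof+/+, the summed level of 6 macrophage genes was 3879 and 4908 CPM in HFD Mof+/+ against 873 to 1963 CPM elsewhere, and that of 5 dendritic cell genes was 255 and 304 CPM against 15.4 to 80.1 CPM. Most of these sums came from single genes, Lyz2 with 2680 and 3261 CPM and Itgax with 223 and 279 CPM in HFD Mof+/+. Of the 6 macrophage genes, 3 passed between the diets in Mof+/+ as higher on HFD and 1 as lower, and of the 5 dendritic cell genes 1 passed, as higher, where 9.75% of all genes were called. Without replicate 2 of HFD Mof+/+, 1 macrophage gene passed as higher and 0 as lower, and without replicate 1 of SD Mof+/+, 2 passed as higher. The lower one was Cd163, a scavenger receptor of resident macrophages, at 49.0 to 73.4 CPM in SD Mof+/+ and 9.82 and 11.2 CPM in HFD Mof+/+ (log2 fold change -2.44 ± 0.26, edgeR adjusted p = 0.00543). The part of these cells in the levels of Sp110 and Sp140 was not tested. C130026I21Rik, Gm2619 and Gm7609 were at 0 in replicate 3 of SD Mof+/+, as in the other SD Mof+/+ libraries that chose them, and the part of immune cells in their levels was not tested.

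Other genes of the same stretch were counted beside the 3 copies. The window of 500 kb on either side of the cluster held 53 further genes, of which 34 had a count in any library. Between Gm15433 and Gm7592, a stretch chosen after its values were seen, lie 20 of these genes, and 14 of them had counts in SD Mof+/- or HFD Mof+/+. Of the 14, 9 were at 0 in all 3 SD Mof+/+ libraries, which is a description, since the 14 were taken for their counts in the other groups and some had very few, such as Gm16028 with 3 counts over the SD Mof+/- libraries and Gm2427 with 2. The summed counts of the 20 genes were 77 over the SD Mof+/+ libraries, 686 over SD Mof+/-, 548 over HFD Mof+/+ and 39 over HFD Mof+/-. By library these were 0.685 to 5.55 CPM in SD Mof+/+, 12.9 to 23.0 CPM in SD Mof+/-, 22.0 and 13.0 CPM in HFD Mof+/+, and 17.2 and 3.796 CPM in HFD Mof+/-. The 17.2 CPM of replicate 1 in HFD Mof+/- rested on 18 counts, all of them on Gm7592.

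Among the neighbours, Gm15433, a processed pseudogene at chr1:84963669-84964559, had 0 counts in SD Mof+/+, 115, 74 and 14 in SD Mof+/-, 61 and 47 in HFD Mof+/+, and 0 in HFD Mof+/-. These values follow the absence in SD Mof+/+ that chose the cluster, and they are given without a test. A530032D15Rik, the copy with the promoter of C130026I21Rik, had 0, 0 and 20 counts in SD Mof+/+ and 46, 25 and 16 in SD Mof+/-, and so it was not silent in every SD Mof+/+ library. Csprs, whose name stands for a component of the Sp100-related sequence and which is annotated on the scaffold GL456221.1, had 0 counts in the SD Mof+/+ libraries, 113, 102 and 10 in SD Mof+/-, 180 and 151 in HFD Mof+/+, and 0 and 8 in HFD Mof+/-. Outside the stretch, Fbxo36 was at 0 in replicate 1 of SD Mof+/+ with 33 and 77 counts in the others, and Slc16a14 was at 0 in replicates 1 and 2 with 21 counts in replicate 3. Trip12, a ubiquitin ligase gene before the cluster, and Cab39 and Psmd1 after it were detected in all groups, with an adjusted p of 0.631, 0.146 and 0.935 between the genotypes on SD.

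**Figure D3:**
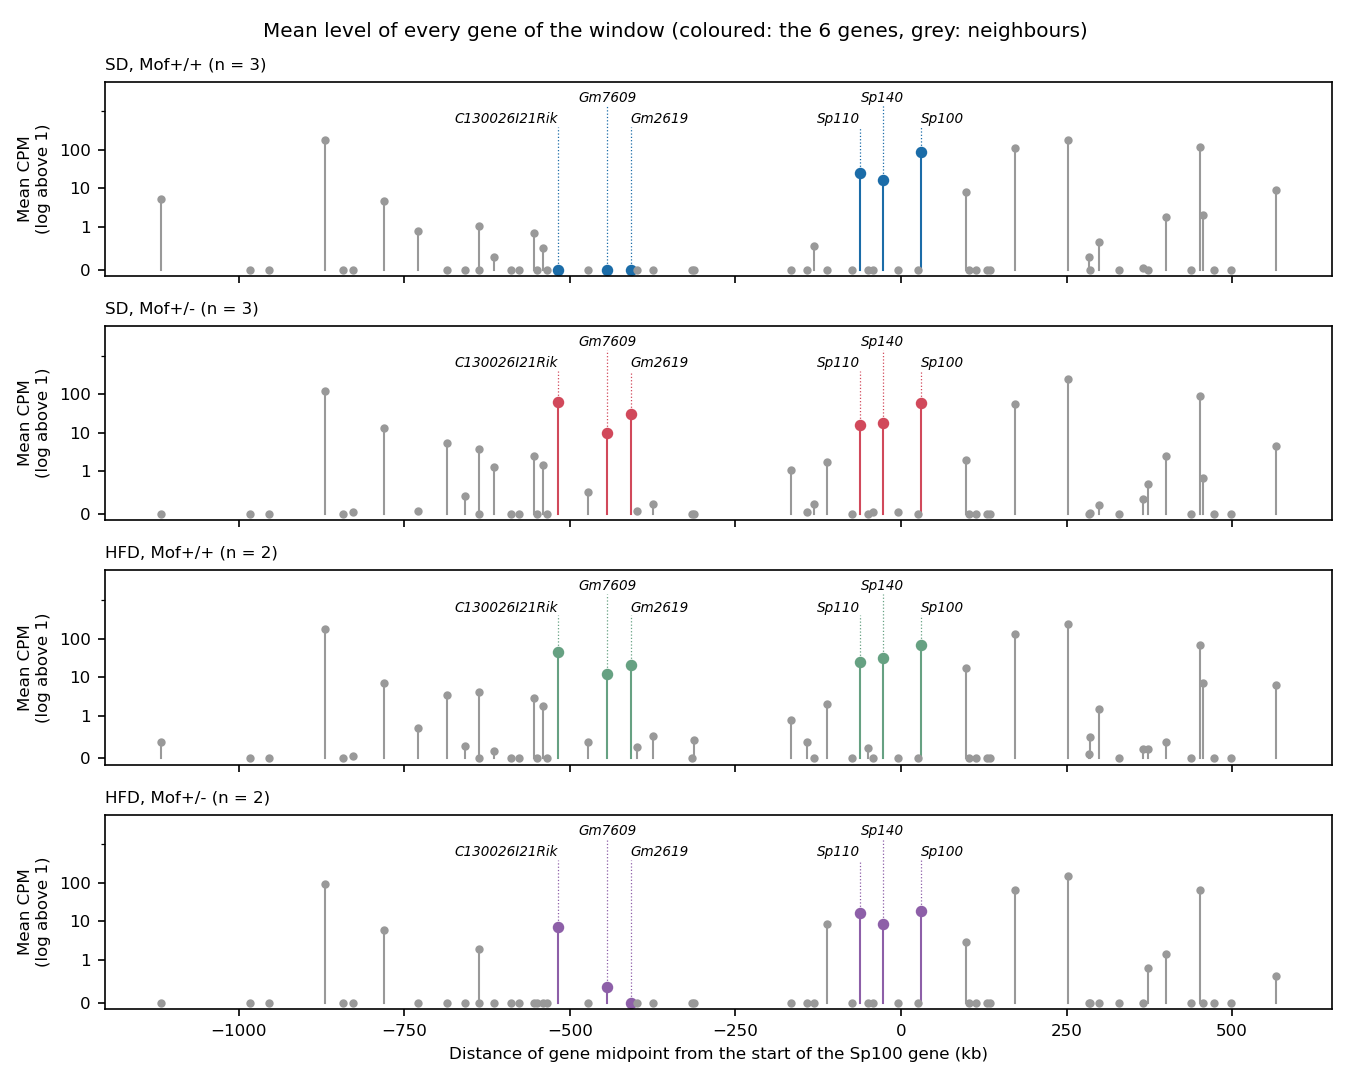
Mean CPM in each group (vertical axis, linear below 1 and logarithmic above) of every gene of the window against the distance of its midpoint from the start of Sp100 (horizontal axis, kb), with the 6 genes coloured and the neighbours in grey. In SD Mof+/+ the stretch that holds C130026I21Rik, Gm7609 and Gm2619 is at or near 0, while Sp110, Sp140 and Sp100 beside it stay between 16.1 and 87.7 CPM.

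Between the genotypes on HFD, all 6 genes were lower in Mof+/- in CPM, without overlap of the libraries, but Sp110 overlapped with TMM scaling and without mitochondrial and muscle genes, where the other 5 did not. Both HFD Mof+/- libraries had more counts on the 16 skeletal muscle genes than any other library, at 78976 and 1930 CPM against 51.3 to 136 CPM, and the part of muscle in the levels of the cluster was not tested. Of all 14120 genes tested, 45.6% were lower in this way, so that the direction is a common one in these libraries. The summed macrophage genes were lower in HFD Mof+/- too, at 1132 and 1963 CPM against 3879 and 4908 CPM, as were the dendritic cell genes, at 51.7 and 60.4 CPM against 255 and 304 CPM. T cell genes were also lower, while the sums of B cell, NK cell and neutrophil genes overlapped. The part of these cells was not tested. The fitted log2 fold changes of Mof+/- against Mof+/+ were -2.26 ± 1.41 (SE) for C130026I21Rik, -4.31 ± 1.64 for Gm7609, -1.56 ± 0.77 for Sp100, -1.51 ± 1.5 for Sp140 and -0.21 ± 0.66 for Sp110, beside a median of -0.24 over all genes tested. For Gm2619, at 0 in both HFD Mof+/- libraries, HFD Mof+/+ was at least 6.99-fold higher, computed against the floor of the shallower library. None of the 6 genes passed (edgeR quasi-likelihood test, adjusted p from 0.278 for Gm2619 to 0.938 for Sp110), and 0% of all genes were called by this test at all, although 1732 had an unadjusted p under 0.05 and DESeq2 called 209. The calls and the fold changes depended on both HFD Mof+/- libraries. Without replicate 1 the log2 fold changes were -1.45 for C130026I21Rik, -3.86 for Gm7609, -0.94 for Sp100 and -0.65 for Sp140. Without replicate 2 that of Sp100 was -3.20, and C130026I21Rik, Gm7609 and Sp140 were left with no count in HFD Mof+/-, where the fitted value depends on the prior count. For Sp110 the log2 fold change was -0.44 without replicate 1 and -0.09 without replicate 2. These fits take the single remaining Mof+/- library to vary like the Mof+/+ pair, and only their fold changes are given. Gm2619 in all these fits, and C130026I21Rik, Gm7609 and Sp140 without replicate 2, had no count in HFD Mof+/-. They passed the filter on low counts only through the group where they were high, so that these fits are no support for a change of the cluster.

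Between the diets in Mof+/-, C130026I21Rik, Gm2619, Gm7609 and Sp100 were lower on HFD without overlap of the libraries, as were 17.7% of all 13610 genes tested. The fitted log2 fold changes of HFD against SD were -2.98 ± 1.07 (SE) for C130026I21Rik, -4.30 ± 1.54 for Gm7609, -1.61 ± 0.69 for Sp100, -1.05 ± 1.25 for Sp140 and 0.07 ± 0.72 for Sp110, beside a median of -0.26 over all genes. Gm2619 was at least 10.8-fold higher on SD. The muscle genes also summed to more in both HFD Mof+/- libraries than in any SD Mof+/- library, and their part was not tested. Here too the fold changes rested on single libraries, and without replicate 1 of HFD Mof+/- they were -2.20 for C130026I21Rik, -3.82 for Gm7609, -0.98 for Sp100 and -0.18 for Sp140, while without replicate 2 that of Sp100 was -3.24 and the other 3 had no count left on HFD. None of the 6 genes passed (edgeR adjusted p = 0.143 for Gm2619, 0.495 for C130026I21Rik and Gm7609, 0.58 for Sp100, 0.879 for Sp140 and 0.991 for Sp110), and 0% of all genes were called, with 1166 at an unadjusted p under 0.05 and 399 called by DESeq2. DESeq2 called Gm2619 (adjusted p = 2.61e-05) and Gm7609 (0.0474). Both passed the filter only through SD Mof+/-, with no count of Gm2619 and 0 and 4 counts of Gm7609 in HFD Mof+/-, so that these calls are no support for a change. Over the alternatives, the adjusted p of Gm2619 ranged from 3.53e-06 to 0.529. The SD Mof+/- libraries were Xist-positive and the HFD Mof+/- libraries were not, and here sex and diet cannot be told apart.

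**Figure D4:**
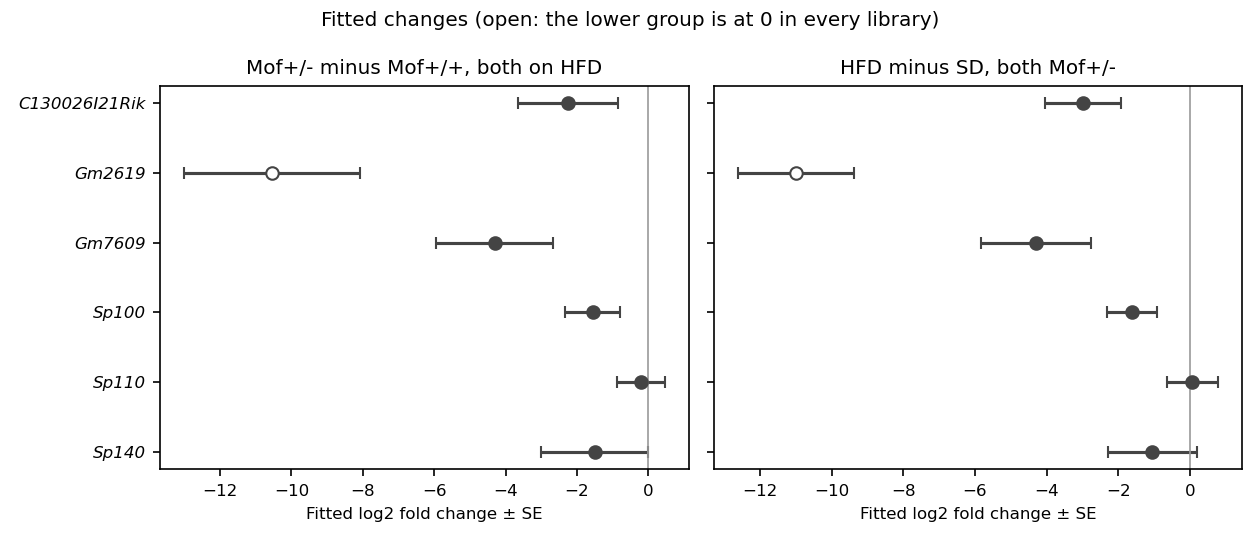
Fitted log2 fold change with its SE (horizontal axis) of each of the 6 genes, for Mof+/- against Mof+/+ on HFD on the left and HFD against SD in Mof+/- on the right. Gm2619, drawn open, has no count in HFD Mof+/-, so that its fitted value depends on the prior count, and Sp110 lies closest to 0 in both, at -0.21 and 0.07.

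The values that chose the genes are given here for their size alone. On SD, C130026I21Rik, Gm2619 and Gm7609 were at least 149-fold, 75.5-fold and 23.4-fold higher in Mof+/- than in Mof+/+, and the other 3 genes overlapped, where 9.71% of all genes tested were higher in Mof+/- without overlap. These bounds are computed against the floor of 3 counts and would be lower against the exact upper limit of a count of 0. They hold under the sample labels. With the groups of the column headings, replicate 3 changes sides, libraries with and without counts stand in both SD groups, and the fitted log2 fold changes were -0.11 for C130026I21Rik, 1.86 for Gm2619 and 1.48 for Gm7609, with SE of 2.25, 2.17 and 2.16. The mean ratios of the remaining genes were 1.49 for Sp100 and 1.54 for Sp110, both higher in Mof+/+, and 1.14 for Sp140, higher in Mof+/-. Without replicate 3 of SD Mof+/+ the fitted log2 fold change of Mof+/- against Mof+/+ changed sign, from -0.22 to 0.14 for Sp100 and from -0.26 to 0.75 for Sp110. In Mof+/+, the 3 copies were at least 109-fold, 48.9-fold and 29.1-fold higher on HFD than on SD, and Sp140 was 1.93 times higher without overlap, where 21% of all genes tested were higher in that way. With the column headings the fitted log2 fold changes were 0.25, 1.38 and 2.03 for the 3 copies, with SE of 2.31, 2.11 and 2.06. Both comparisons rest on the same 3 SD Mof+/+ libraries. Cell type markers differed between the genotypes on SD too, with a summed level of 6 endothelial genes of 914 to 2183 CPM in Mof+/+ and 168 to 258 CPM in Mof+/-, and of 6 adipocyte genes of 15949 to 20649 CPM and 29559 to 48550 CPM. The summed level of 5 mesothelial genes was 22.5 to 59.1 CPM in Mof+/+ and 151 to 319 CPM in Mof+/-, in the direction of the copies. Markers of NK cells (5 genes, 13.3 to 44.5 CPM in Mof+/+ and 2.49 to 4.76 CPM in Mof+/-) and of dendritic cells (34.2 to 80.1 CPM and 15.4 to 22.5 CPM) separated the genotypes the other way, and the summed level of 6 neural and glial genes was 1111 CPM in replicate 2 of Mof+/+ and at most 146 CPM in every other library. The part of these cells in the levels of the copies was not tested.

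A search over all genes was made for the same pattern, at most 3 counts in every SD Mof+/+ library and at least 1 CPM in each of the other 7. No gene met it. C130026I21Rik, Gm2619 and Gm7609 missed it in the HFD Mof+/- libraries, and Sp100, Sp110 and Sp140 had more than 3 counts in every SD Mof+/+ library. Without those 2 libraries, a choice made after the values were seen, 18 genes met it, and 6 of them were on chromosome 1. The 6 were C130026I21Rik, Gm2619, Gm7609, their neighbour Gm15433, and Atp1a4 and Il10, which lie elsewhere on the chromosome. Csprs was among the 18 as well. The search repeats the rule that chose the cluster, so that the 3 copies are among the 18 by construction, and nothing about chromosome 1 is read from the number.

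Shared sequence limits what a count on these genes means. Of all 100-base windows in the transcripts of each gene, the length of 1 read, 16.5% in C130026I21Rik, 17.1% in Gm2619, 20.8% in Gm7609, 1.74% in Sp100, 21.9% in Sp110 and 35.6% in Sp140 also occurred in a transcript of another gene. C130026I21Rik shared 195 windows with Sp140 and 76 with Sp110, Gm2619 shared 107 with Sp100, and Gm7609 shared 325 with Gm15433 and 64 with Sp100. How reads with several places in the genome were counted is not given in the sources used here, and levels of the copies are uncertain to that extent. With windows of 50 bases the shares were 32.9%, 36.1%, 38.3%, 5.92%, 42.3% and 57.3% in the same order. The library kit does not mark strand, and reads from overlapping genes on opposite strands cannot be told apart. Of the exonic bases of Sp140, 26.4% overlap the antisense gene Gm17017, and of those of C130026I21Rik, 8.96% overlap A530040E14Rik and 7.47% overlap Gm16028.

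Genes known to differ between C57BL/6 substrains or inbred strains were examined beside the copies. Nnt, a mitochondrial transhydrogenase whose transcript is disrupted in C57BL/6J, was at 13.7 to 25.5 CPM in the 6 SD libraries and the 2 HFD Mof+/+ libraries and at 0 and 3.796 CPM in HFD Mof+/-. Wdfy1 was at 4.60 to 29.8 CPM over all libraries, and Glo1 was at 55.5 to 78.1 CPM. Of 5 genes of this list tested, 0 passed between the genotypes on SD in edgeR or DESeq2, with 1 at an unadjusted p under 0.05, and 1 passed between the diets in Mof+/+, where 9.75% of all genes were called. That gene was Alad, an enzyme of heme synthesis with copy number differences among strains, at 78.7 to 86.7 CPM in SD Mof+/+ and 33.6 and 38.5 CPM in HFD Mof+/+ (log2 fold change -1.09 ± 0.18, edgeR adjusted p = 0.0177). It did not pass without replicate 1 of SD Mof+/+ or without either HFD Mof+/+ library. In SD Mof+/- it was at 60.1 to 79.0 CPM. By the study's methods every strain was backcrossed to C57BL/6J, while the labels give C57BL/6. The part of strain background in the levels of the 3 copies was not tested.

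The remaining SAND domain genes, which share the DNA-binding fold, were measured as relatives. Of Aire, Deaf1, Gmeb1, Gmeb2, Ski and Skil, 5 were tested in each contrast and 0 passed in any in edgeR. On SD, 2 of them had an unadjusted p under 0.05 between the genotypes and DESeq2 called 2, where 3559 of all 13864 genes had such a p and DESeq2 called 2209. In the other contrasts both counts of these relatives were 0. Their median log2 fold change between the genotypes on SD was -0.82 against -0.07 over all genes. Among them the lowest p belonged to Gmeb2, at 22.1, 20.7 and 24.9 CPM in SD Mof+/+ and 8.15, 8.35 and 3.42 CPM in SD Mof+/- (edgeR adjusted p = 0.0905). Of 24 genes for PML nuclear bodies, the structures that hold SP100, 0 passed in edgeR between the genotypes on SD, with a median of -0.39. Of these, 4 had an unadjusted p under 0.05 and 1 was called by DESeq2, against 3559 and 2209 of all 13864 genes. In the contrasts with HFD Mof+/-, 0 of the 24 passed in edgeR or DESeq2 and 0 had an unadjusted p under 0.05. Between the diets in Mof+/+, 2 of the 24 passed, both lower on HFD, where 9.75% of all 14939 genes tested were called. They were Hipk2, a kinase of these bodies (-1.58 ± 0.22, adjusted p = 0.0105), and Cbx5, which encodes a heterochromatin protein (-0.71 ± 0.17, adjusted p = 0.0436). With replicate 1 of SD Mof+/+ left out 1 of them passed, and with either HFD Mof+/+ library left out 0 passed.

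Interferon drives Sp100, Sp110 and Sp140 in many cells, and its genes were counted in the same fits. Of 18 signalling genes, 2 passed between the genotypes on SD, where 5.24% of all 13864 genes tested were called. They were Socs3, a feedback inhibitor of cytokine receptors, which was higher in Mof+/- (2.97 ± 0.56, adjusted p = 0.0325), and the kinase gene Jak2, which was lower (-1.52 ± 0.35, adjusted p = 0.0471). With any 1 of the SD Mof+/+ libraries or replicate 2 of SD Mof+/- left out, 0 of the 18 passed, and without replicate 3 of SD Mof+/- 1 passed. Between the diets in Mof+/+, the receptor subunit gene Ifngr2 was higher on HFD (1.54 ± 0.23, adjusted p = 0.0123) the other 17 did not pass against 9.75% of all genes called, 3 passed without replicate 3 of SD Mof+/+, when 2230 of all 15015 genes were called, and 0 passed without either HFD Mof+/+ library. Of the 48 interferon-stimulated genes, 0 passed in any of the 4 contrasts in edgeR, with 47 or 48 tested, 3 to 7 at an unadjusted p under 0.05 and 1 or 2 called by DESeq2. Over all genes, 3559 of 13864 and 1732 of 14120 had such a p between the genotypes on SD and HFD. Between the diets in Mof+/+ and Mof+/- these were 4238 of 14939 and 1166 of 13610. DESeq2 called 2209, 209, 2982 and 399 genes in that order. The median log2 fold change of the 48 genes was 0.03 between the genotypes on SD and 0.24 between the diets in Mof+/+, against medians of -0.07 and -0.04 over all genes. It was -0.91 between the genotypes on HFD against -0.24, and -0.54 between the diets in Mof+/- against -0.26. Without replicate 3 of SD Mof+/+, 4 of the 48 passed between the diets in Mof+/+, all higher on HFD, and 2230 of all 15015 genes were called in that fit. The summed level of the 48 genes was 1345 to 2247 CPM in SD Mof+/+, where the 3 copies had no count, and 1085 to 1707 CPM in SD Mof+/-, where they had 88.4 to 117 CPM.

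**Figure D5:**
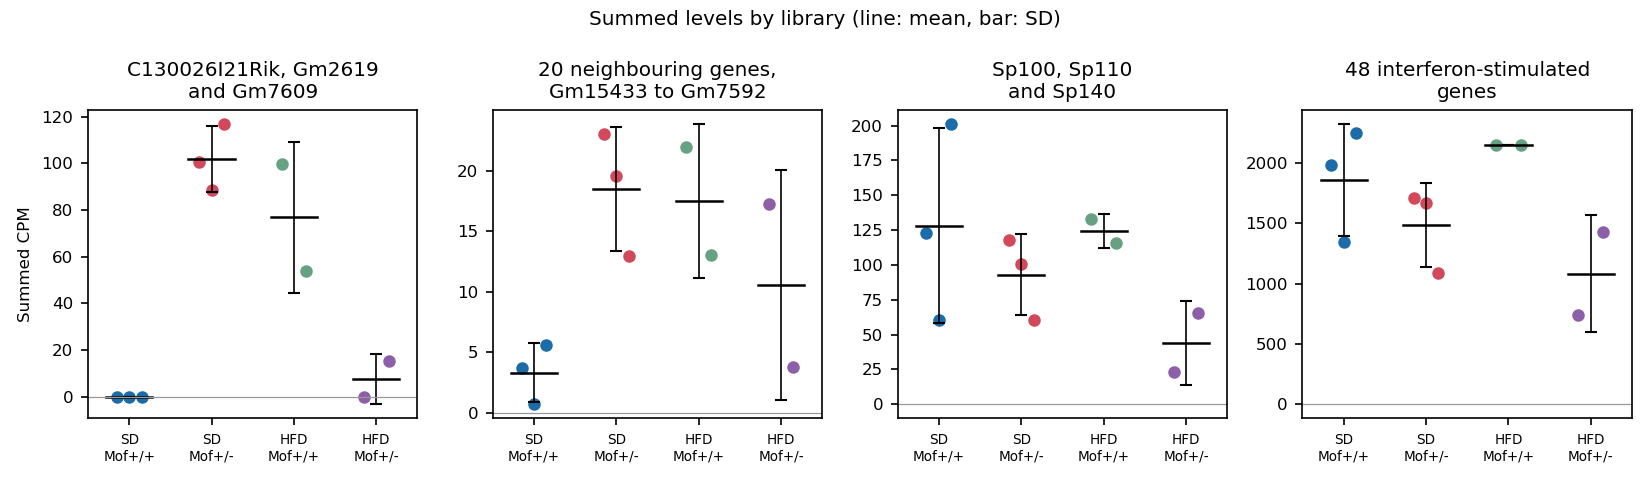
Summed CPM by library in the 4 groups of the 3 copies, of the 20 neighbouring genes from Gm15433 to Gm7592, of Sp100, Sp110 and Sp140, and of 48 interferon-stimulated genes, with the mean as a line and the SD as a bar. The 3 copies and the neighbours lie lower in every SD Mof+/+ library than in every SD Mof+/- library, whereas the sums of Sp100, Sp110 and Sp140 and of the interferon-stimulated genes overlap between them.

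The likeness of the 6 genes across the 10 libraries includes the SD Mof+/+ values that chose them and is a description. On log2(CPM + 1), Pearson's r was 0.98 between Gm2619 and Gm7609, 0.93 between C130026I21Rik and Gm7609, and 0.89 between C130026I21Rik and Gm2619. It was 0.86 between Sp100 and Sp140, 0.42 between Sp100 and Sp110, 0.24 between Sp110 and Sp140, 0.19 between C130026I21Rik and Sp100, and -0.06 between C130026I21Rik and Sp110. Among 15896 other genes, the 5 most like C130026I21Rik were Ccl11 (eotaxin, an attractant of eosinophils, r = 0.98), Isoc2b, Gm19774, Zbtb8os and Yipf1, and none of them is on chromosome 1. Ccl11 was at 43.2 to 51.2 CPM in SD Mof+/+, 135 to 197 CPM in SD Mof+/-, 147 and 122 CPM in HFD Mof+/+, and 43.1 and 80.6 CPM in HFD Mof+/-. The 5 most like Sp100 were Mob3c, Tapbpl, Arl5a, Polr3b and Spice1, with r of 0.97 to 0.98. The 10 points share their group structure and the shallow HFD Mof+/- library, and these values describe the profiles only.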

How the data were processed

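WAT mRNA of 10 libraries was sequenced by the authors as read pairs on unstranded TruSeq libraries, mapped to GRCm38 with STAR and counted on genes with featureCounts (Subread 1.5.0-p1). The deposited values are raw counts per gene, without normalization. Of the 47937 identifiers, 47310 were matched to GENCODE M21 when the version was ignored, and names, coordinates and exons came from that release. Groups were taken from the sample labels.

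The genes of the cluster and all lists were chosen with earlier results of these data known. Genes were named by rule, namely the 6 genes, at most 3 genes of a list each way past the threshold or else those of lowest p, all neighbours within 500 kb, and the 5 genes most like C130026I21Rik and Sp100. The quasi-likelihood test of edgeR 4.0.16 in R 4.3.3, with filterByExpr and TMM factors, was run on the libraries of each pair of groups, p-values were adjusted over all genes tested (Benjamini-Hochberg, threshold 0.05), and DESeq2 1.42.0 was an alternative. All 6 genes passed the filter in every contrast, and genes at 0 in 1 group passed through the other group. The procedure was tested on simulated data. Totals of 1044355 to 17171947 counts set the precision, with a floor of 3 counts and exact 95% Clopper-Pearson intervals, which cover counting error only. No 2 libraries of the same group agreed within sampling noise. Other alternatives were DESeq2 size factors, other filters, the replicate block, 1 fit of all 10 libraries, each library left out, and the grouping by column headings. Protein sequences were not used here.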

Additional observations from a re-analysis of the deposited data

Results flagged for a closer look

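C130026I21Rik, Gm2619 and Gm7609 moved in opposite directions between the genotypes under the 2 diets, in every library as labelled. The mean of Mof+/- minus that of Mof+/+ was 61.2 CPM on SD and -37.5 CPM on HFD for C130026I21Rik, 31.0 CPM and -20.1 CPM for Gm2619, and 9.62 CPM and -11.6 CPM for Gm7609. On HFD none of them passed (edgeR adjusted p = 0.686, 0.278 and 0.403 in that order), and replicate 1 of HFD Mof+/- held only 1044355 counts. The SD values follow the sample labels, and with the groups of the column headings libraries with and without counts of these genes stood in both SD groups and the fitted log2 fold change of C130026I21Rik on SD was -0.11. The difference between the diets was not tested, because the SD values were used to choose these genes. On SD the genotypes also differed in Xist and Y-linked counts, whereas on HFD both genotypes carried Y-linked counts, and 45.6% of all genes tested were lower in HFD Mof+/- without overlap, and the part of these in the difference was not tested. Outliers within a group could not be examined, since no group has 4 libraries.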

How the results depend on the processing

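The number of genes called depended on the setting. Between the genotypes on SD it was 727, and it was 2209 with DESeq2, 1840 without a filter on low counts, 1235 with at least 10 counts in every library, 194 with all 10 libraries in 1 fit, 0 with the groups of the column headings, and 17 to 1026 with 1 library left out. Between the genotypes on HFD it was 0, and it was 209 with DESeq2, 1 with all libraries in 1 fit, and 92 to 7551 with 1 library left out. Between the diets in Mof+/+ it was 1457, and it was 2982 with DESeq2, 142 with all libraries in 1 fit, 0 with the column headings, and 64 to 2230 with 1 library left out. Between the diets in Mof+/- it was 0, and it was 399 with DESeq2, 429 without a filter, 26 with at least 10 counts, 189 with all libraries in 1 fit, and 0 to 2122 with 1 library left out. The cause was not tested.

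Of the 6 genes, 0 were called between the genotypes on HFD, 1 with DESeq2 and 0 to 5 with 1 library left out. DESeq2 called 209 of all 14120 genes between the genotypes on HFD. Each fit of that contrast with 1 library left out leaves 1 library in a group. The 6 genes were called only in those of these fits that called the most of all genes, whose range is given above. Such calls are no support for a change of the cluster. Between the diets in Mof+/- 0 were called, and 2 with DESeq2, where 399 of all 13610 genes were. Without a filter 2 were called, where 429 of 20454 genes were, and with all libraries in 1 fit 1 was, where 189 of 15897 genes were. With any 1 SD Mof+/- library left out 0 were called, as were 0 of all genes. For fits between the diets that leave 1 HFD Mof+/- library only fold changes are given. Of 122 log2 fold changes of the 6 genes under these alternatives, 96 kept their direction and side of the threshold, 22 passed where the value reported did not, and 4 changed sign. All 4 were those of Sp110 between the diets in Mof+/-, at -0.11 with the replicate block, -0.10 without replicate 3 of SD Mof+/-, -0.12 without replicate 1 of HFD Mof+/-, and -0.53 with the column headings, and its values with 1 library left out spanned -0.12 to 0.25 around 0.07. Among the mean levels above 0, those of Sp110 in HFD Mof+/- (18.4 in TMM-normalized CPM and 21.2 without mitochondrial and muscle genes) and of Sp140 in HFD Mof+/+ (29.1 in TMM-normalized CPM) moved by more than 1 SD.

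Replicate numbers did not pair the libraries, as the correlation of deviations of same-numbered libraries from their group means was -0.04 to 0.06. With the replicate block, the genotype contrast called 428 of 13864 genes on SD and 200 of 14120 on HFD, of which 0 on HFD were among the 6 genes. The diet contrast called 1460 of 14939 genes in Mof+/+ and 245 of 13610 in Mof+/-, of which 2 in Mof+/- were among the 6 genes. No gene had the low pattern in SD Mof+/+ with at most 1 count and at least 0.5 CPM either, 18 had it without the HFD Mof+/- libraries, and 9 had it without replicate 1 of that group alone, both added after the data were seen. With replicate 1 of HFD Mof+/- left out, 6 of the 6 genes were lower without overlap between the genotypes on HFD, where 56.5% of all genes were, and 4 of the 6 between the diets in Mof+/-, where 24.7% were. Fits that leave 1 library in a group take it to vary like the other group.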
